A study of Mus musculus with 14 samples.

Results

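Livers of mice labelled Homo for Pkd1 were compared with livers labelled WT across every gene with enough reads, first with all genes and then without those of chromosome 17, where Pkd1 lies. The comparison held 10 of the 14 samples of the study, chosen by genotype label: 4 Homo livers (Pkd1 Homo Cre) and 6 WT livers (littermate WT Cre). All 14 mice were littermates on normal chow with Cre in the label. The 4 livers labelled Het entered the read filter, the scaling and the estimate of the spread, but not the comparison itself. The labels give neither the Pkd1 allele, the Cre driver, the age nor the litter, and nothing in them says which liver cells carried the alteration. Each library has its own numbered littermate label and was taken as 1 mouse. The p-values set the difference between the groups against the spread between livers.

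Pkd1 encodes polycystin 1, a large membrane protein that works with the channel polycystin 2, encoded by Pkd2, at the primary cilium and at other membranes. Loss of polycystin 1 is known for cysts that arise from kidney tubules and from the bile ducts of the liver. Hepatocytes, which give most of the RNA of whole liver, have no primary cilium, whereas bile duct cells (cholangiocytes) carry one.

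Levels of single genes are in CPM, with each library scaled by TMM to its effective size. Total counts ran from 25238140 to 40925973 in WT and from 18573739 to 28431875 in Homo (exact two-sided permutation p = 0.114). The mitochondrial share of counts was 11.1% ± 0.841 in WT (SD, n = 6) and 11.1% ± 0.231 in Homo (n = 4; exact permutation p = 1.0). Summed levels of 5 hepatocyte markers (Alb, Ttr, Apoa1, Serpina1a and Hnf4a) lay between 47335 and 64141 CPM in WT and between 45181 and 70441 CPM in Homo.

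Pkd1 transcripts (ENSMUSG00000032855) were lower in each Homo liver than in any WT liver. WT livers ran from 31.4 to 37.7 CPM with a median of 35.2 CPM, and Homo 1 to 4 stood at 23.1, 26.2, 25.5 and 26.4 CPM. The groups did not overlap, and the gap between them was wider than the range within Homo. The fold of Homo over WT was 0.728 (95% interval 0.646 to 0.819, log2 -0.46 with SE 0.08, edgeR quasi-likelihood adjusted p = 0.0246). An exact two-sided permutation test of log2 CPM gave p = 0.00952, the smallest that 4 against 6 livers allow. Counts were summed over the whole gene, so transcripts from outside an altered stretch count as Pkd1, and fewer cells with the transcript cannot be told apart from less transcript per cell in whole liver. The call ended without any 1 of Homo 1, 2, 3 or 4 or WT 3, 4 or 6 (adjusted p from 0.0567 to 0.131) and with library totals in place of TMM scaling (0.0576).

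Tsc2, the neighbour of Pkd1 on the other strand, encodes a brake on mTORC1 signalling and did not pass. Its WT range was 41.8 to 50.9 CPM (median 47.2), and Homo 1 to 4 were at 37.1, 41.2, 41.2 and 41.6 CPM. All 4 Homo livers lay just under the lowest WT liver (fold 0.859, interval 0.784 to 0.94, edgeR adjusted p = 0.51, and p = 0.00952 by exact permutation). The annotations of Pkd1 and Tsc2 overlap, and the use of strand in counting is not given, so reads in the overlap cannot be told apart. Pkd2 spread widely in Homo, at 14.0, 23.4, 6.84 and 16.7 CPM, against 12.8 to 22.3 CPM in WT. Its groups overlapped (fold 0.786, interval 0.526 to 1.17, edgeR adjusted p = 0.998, and p = 0.248 by exact permutation).

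Across the transcriptome 36 of 16201 tested genes passed at an adjusted p under 0.05 (0.222%), 26 higher (0.16%) and 10 lower (0.0617%) in Homo. In each of the 36 the Homo and WT libraries did not overlap, which was true of 187 tested genes (1.15%). Chromosome 17 held 28 of the 36 calls among its 753 tested genes (3.72%), 20 higher (2.66%) and 8 lower (1.06%). The other 15448 genes, counted as off chromosome 17, held 8 calls (0.0518%), 6 higher (0.0388%) and 2 lower (0.0129%). Of these genes, 14857 were placed on other chromosomes and held 6 calls (0.0404%). The remaining 591 had no place in the annotation used, so some may lie on chromosome 17, and held 2 calls (0.338%). Before adjustment, p was under 0.05 for 766 of all tested genes (4.73%), that is for 109 chromosome 17 genes (14.5%) and for 657 of the others (4.25%). Groups without overlap numbered 49 on chromosome 17 (6.51%) and 138 among the others (0.893%).

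No other chromosome stood near 17 in these shares. Over the other 19 chromosomes (leaving out Y, with 7 tested genes, and the mitochondrial genome, with 17), the share with p under 0.05 ran from 2.48% on chromosome 16 to 6.65% on chromosome 18. The share without overlap ran from 0.471% to 1.70%. The median size of the log2 difference, whatever its sign, was 0.122 on chromosome 17 and between 0.0894 and 0.107 on the others.

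**Figure D1:**
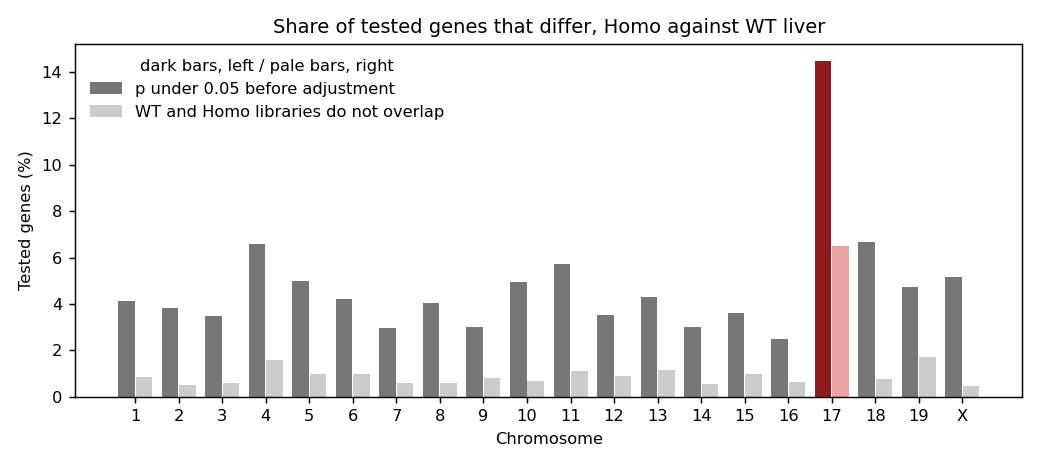
Share of tested genes on each chromosome with p under 0.05 before adjustment (dark bars) and with WT and Homo libraries that do not overlap (pale bars), in percent. Chromosome 17 stands at 14.5% and 6.51%, and no other chromosome is above 6.65% or 1.70%.

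The libraries themselves showed the same division. Over all genes the mean Pearson correlation of log2 CPM was 0.970 among the 15 pairs of WT livers, 0.968 among the 6 pairs of Homo livers and 0.969 for the 24 pairs of a WT with a Homo liver. Without chromosome 17 these means were 0.970, 0.968 and 0.969, so a liver was about as like one of the other genotype as one of its own. On chromosome 17 genes alone they were 0.974 within WT, 0.969 within Homo and 0.958 between them. The pairs share libraries, so these are descriptions across genes without a test.

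Along chromosome 17 the calls covered a long stretch on both sides of Pkd1 and then stopped. In map order Pkd1 was the 150th of 753 tested genes. The first call, Gm6475, lay 146 tested genes before it and the last, Rcan2, 330 after it, with 9 calls before Pkd1 and 18 after. In blocks of 50 genes, the share with p under 0.05 was highest in the block that ends at Pkd1, with 20 genes (40.0%), of which 4 were higher in Homo. In that block 17 of 50 genes were above a fold of 1, and the median log2 difference was -0.09. The block from H2-T23 to Polh came next, with 16 genes (32.0%), 13 of them higher. It held the most calls, 7, all higher.

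No call lay beyond the 500th gene. The first 500 genes held all 28 calls, 102 genes with p under 0.05 (20.4%) and 49 genes without overlap (9.8%). The last 253, from Xpo5 to Gm20939, held 0 calls, 7 genes with p under 0.05 (2.77%) and 0 without overlap. The bound of 500 was chosen after the values were seen. Blocks within the stretch were uneven: the block from Ring1 to Msh5, in the histocompatibility region, held 0 calls and 4 genes with p under 0.05.

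**Figure D2:**
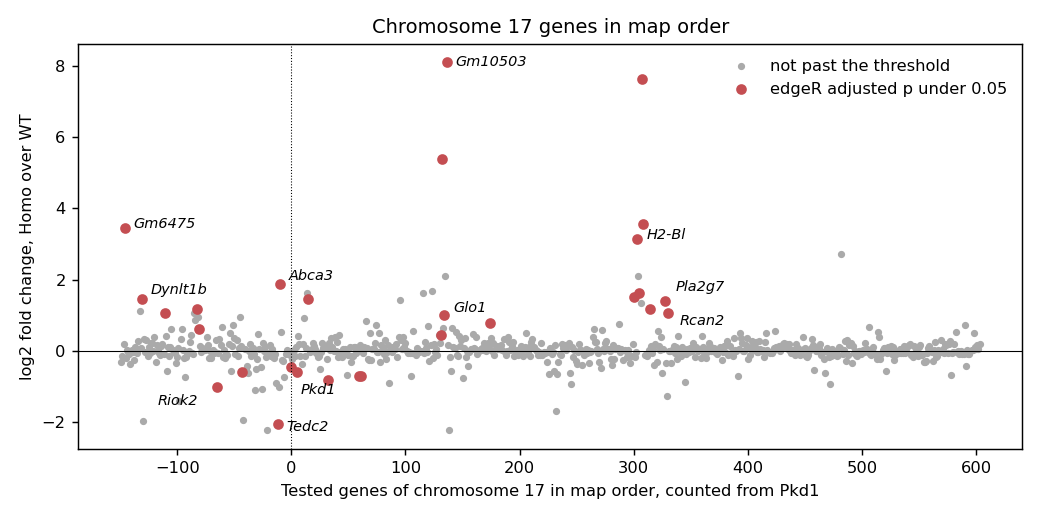
Log2 fold change of Homo over WT for the 753 tested genes of chromosome 17, placed by map order and counted from Pkd1 (dotted line). Red points passed the edgeR threshold. They run from 146 genes before Pkd1 to 330 genes after it, with none beyond.

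Of the 40 tested genes within 20 places of Pkd1 on either side, 4 passed (Tedc2, Abca3, Gfer and Meiob), against 0.222% of all tested genes and 3.72% of those on chromosome 17. In the same stretch 15 genes had p under 0.05, against 4.73% of all tested genes and 14.5% of those on chromosome 17. Of the 40 genes, 18 were above a fold of 1. Between Tedc2 and Abca3 lies Ccnf, which encodes cyclin F and was at 9.1 to 16.1 CPM among WT livers and 2.91, 4.86, 9.37 and 6.86 CPM in Homo. Its groups overlapped and it missed the threshold (fold 0.495, edgeR adjusted p = 0.401). Next to Tedc2 on the other side, the netrin gene Ntn3 was at 3.54 to 7.05 CPM across WT and 1.63 to 3.73 CPM in Homo (fold 0.535, adjusted p = 0.331). The mTORC1 subunit gene Mlst8, 3 places before Pkd1, had a fold of 0.995 (interval 0.809 to 1.22), and the zinc finger gene Zfp598, 4 places after it, one of 1.07 (0.925 to 1.25).

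The smallest p of all tested genes was that of Abca3 (ENSMUSG00000024130), a transporter that loads phospholipid into lamellar bodies of lung cells. WT livers lay between 52.9 and 60.4 CPM (median 57.8), and Homo 1 to 4 at 207, 206, 209 and 218 CPM. Both groups were tight and far apart. Abca3 rose 3.69-fold (interval 3.41 to 4.0, edgeR adjusted p = 2.04e-11). It overlaps the transcript D330041H03Rik on the other strand, which had a WT mean of 1.37 ± 0.317 CPM (SD, n = 6) and a Homo mean of 1.99 ± 0.777 CPM (n = 4; edgeR adjusted p = 0.998).

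Tedc2 (ENSMUSG00000024118), a factor in building centrioles, from which cilia grow, moved the other way. Its WT range was 86.5 to 104 CPM (median 92.8), and Homo 1 to 4 were at 15.9, 21.6, 24.9 and 28.8 CPM. The highest Homo liver was below the lowest WT liver by a wide margin. Tedc2 fell to a fold of 0.243 (interval 0.198 to 0.299, adjusted p = 1.02e-06).

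Riok2, a kinase that acts in maturation of the small ribosomal subunit, fell to a fold of 0.501 (interval 0.45 to 0.559, adjusted p = 2.58e-06). WT ran from 22.8 to 27.7 CPM and Homo 1 to 4 were at 14.4, 12.5, 12.4 and 11.6 CPM, with no overlap. Glo1, the glyoxalase that disposes of methylglyoxal, a by-product of glycolysis, rose 2.00-fold (interval 1.63 to 2.46, adjusted p = 0.00269). Its WT range was 159 to 235 CPM and Homo 1 to 4 were at 375, 435, 402 and 335 CPM.

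Metabolic and mitochondrial genes among the calls included Decr2, Gfer and Pla2g7. Decr2, a peroxisomal reductase needed to oxidise unsaturated fatty acids, was at 99.3 to 141 CPM in WT (median 115) and at 65.7, 61.0, 76.6 and 84.8 CPM in Homo. It fell to a fold of 0.614 (interval 0.52 to 0.725, adjusted p = 0.0113), a call that ended without Homo 1 or Homo 2 (highest adjusted p 0.0669). Gfer, a sulfhydryl oxidase of the space between the mitochondrial membranes, was at 22.8 to 30.3 CPM in WT livers and 15.2, 17.6, 16.7 and 18.6 CPM in Homo. It fell to a fold of 0.667 (interval 0.592 to 0.751, adjusted p = 0.00269).

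Pla2g7, the plasma enzyme that inactivates platelet-activating factor, was at 1.84 to 3.43 CPM among WT livers and 6.97, 4.54, 7.26 and 8.62 CPM in Homo. It rose 2.64-fold (interval 1.9 to 3.66, adjusted p = 0.0112).

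Genes of the cytoskeleton, of meiosis and of the secretory membranes also passed. The dynein light chain gene Dynlt1b was at 1.84 to 2.61 CPM across WT and 5.78, 5.27, 4.84 and 7.47 CPM in Homo, a rise of 2.76-fold (interval 2.17 to 3.49, adjusted p = 0.000296). A second light chain gene, Dynlt2a2, was at 2.57 to 3.55 CPM in WT livers and 7.10, 7.52, 6.05 and 7.41 CPM in Homo, 2.27-fold higher. Ermard, a protein of the endoplasmic reticulum that overlaps Dynlt2a2 on the other strand, rose 1.54-fold, from 9.31 to 12.9 CPM in WT to 14.7 to 18.5 CPM in Homo. Meiob, which binds single-stranded DNA in meiosis, was at 1.88 to 3.96 CPM among WT livers and 8.65, 7.48, 7.14 and 6.59 CPM in Homo, a rise of 2.77-fold (interval 2.11 to 3.63, adjusted p = 0.0013).

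**Figure D3:**
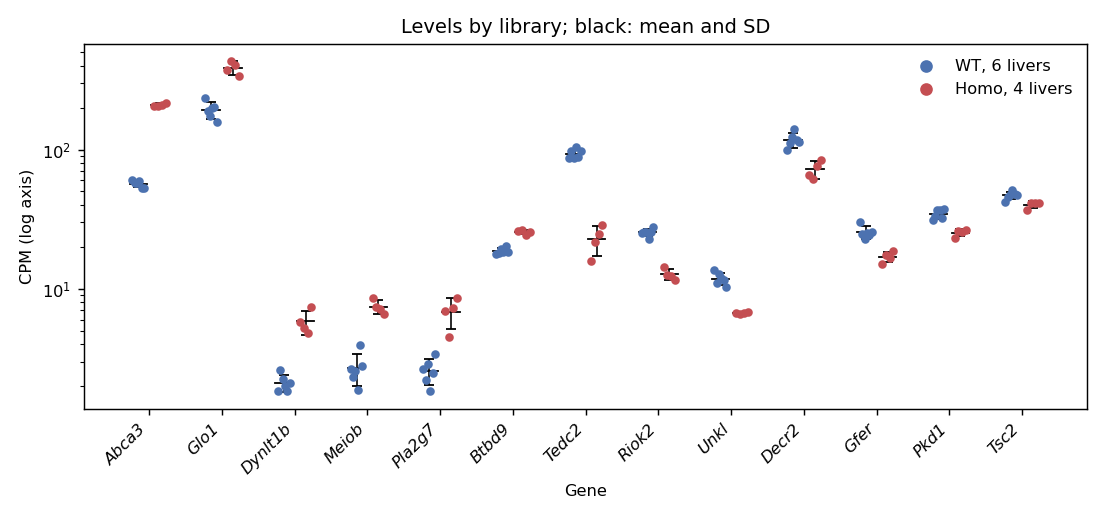
CPM of 13 chromosome 17 genes in each library on a log axis, WT in blue and Homo in red, with mean and SD in black. In each of these genes, Tsc2 included, the Homo points lie wholly above or wholly below the WT points, with the widest gaps in Abca3 and Tedc2.

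Further calls on chromosome 17 were smaller or nearer the threshold. Unkl, a ring finger gene that overlaps Gnptg on the other strand, was very even in Homo at 6.62 to 6.86 CPM against 10.3 to 13.6 CPM in WT, a fold of 0.568 (adjusted p = 0.00269). The zinc finger gene Zfp955b rose 1.74-fold, from 6.26 to 8.86 CPM in WT to 11.3 to 13.6 CPM in Homo (adjusted p = 0.0057). Btbd9, a likely adaptor of a cullin ubiquitin ligase, rose 1.36-fold, the smallest rise called, from 17.9 to 20.5 CPM in WT to 24.3 to 26.3 CPM in Homo. Pgap6, which trims lipid anchors of surface proteins, fell to a fold of 0.613 and the zinc finger gene Zfp943 to a fold of 0.669. Rcan2, a regulator of calcineurin, rose 2.10-fold and the ring finger gene Rnf39 2.25-fold.

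Several of these smaller calls depended on single livers. That of Btbd9 ended without any 1 liver other than WT 5 (highest adjusted p 0.136), and that of Rnf39 without any 1 liver other than Homo 3 (0.282). The call of Rcan2 ended without Homo 1, Homo 4 or any 1 WT liver (0.167) and that of Pgap6 without any 1 liver other than Homo 3 and WT 4 (0.126). The call of Ermard ended without Homo 1, 2 or 3 or WT 1, 3, 4 or 6 (0.151) and that of Zfp943 without Homo 3 or Homo 4 (0.0819). Over the 10 fits that each left out 1 library, 21 of the 36 calls passed every time, of which 16 were on chromosome 17.

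Of the class I-like genes of the histocompatibility complex, H2-Bl, H2-T24 and H2-T10 rose in Homo. H2-Bl was at 0.345 to 1.54 CPM across WT and 11.1, 5.84, 9.15 and 15.4 CPM in Homo, a rise of 8.93-fold (interval 5.46 to 14.6, adjusted p = 0.000195). H2-T24 was at 2.08 to 4.02 CPM in WT livers and 9.44, 5.88, 9.94 and 10.9 CPM in Homo, 2.87-fold higher (adjusted p = 0.00861). H2-T10 rose 3.10-fold, from 0.414 to 1.59 CPM in WT to 2.61 to 4.79 CPM in Homo (adjusted p = 0.0277), but not without Homo 1, Homo 4, WT 1, WT 4 or WT 5 (up to 0.172). Homo 2 was the lowest Homo liver in H2-Bl and H2-T24.

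Of 28 measured genes of antigen presentation, 24 lie on chromosome 17, and these 3 were called. The share called was 0.222% of all tested genes and 3.72% of those on chromosome 17. On the list 15 genes were above a fold of 1 (median log2 0.04). No other gene on the list passed, whether classical, class I-like or peptide-loading. H2-K1, a classical class I heavy chain, had a mean of 608 ± 39.1 CPM in WT (SD, n = 6) and of 582 ± 28.4 CPM in Homo (n = 4; log2 -0.06, edgeR adjusted p = 0.998). Of further class I-like genes, H2-T23 was at 98.0 and 87.7 CPM and H2-Q7 at 51.2 and 62.9 CPM (both adjusted p = 0.998). B2m, the light chain encoded on chromosome 2, had means of 1352 and 1258 CPM. Class I genes are close relatives, and how reads were divided between them is uncertain.

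Another 5 calls on chromosome 17 were gene models without an established function. Gm10503, which overlaps Gm50252 on the same strand near Glo1, had 2 counts over the 6 WT libraries and 433 over the 4 Homo libraries, a ratio of depth-scaled counts of 391 (95% counting interval 108 to 3241). Gm10499 had 0 counts in WT and 89 in Homo, at least 53.6-fold higher when 3 counts stand for the WT total. Gm50252 had 6 WT counts, all in WT 3, and 147 Homo counts. Gm6475 and Gm8909 each had 12 and 83, and both calls ended without Homo 1 (adjusted p = 0.0934 and 0.0827). The span annotated as Gm50252 also overlaps Btbd9 and Glo1, so reads shared by these transcripts cannot be told apart.

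Off chromosome 17, most calls were processed copies or close relatives of other genes. Adjusting the 15448 genes among themselves left 5 calls (0.0324%): Glo1-ps, Atp6v0c-ps2, Rnps1-ps, Gm13169 and ENSMUSG00000121779, which has no symbol and no place in the annotation used. Hmga1b, Cyp4a12b and the unplaced ENSMUSG00000121610 passed only with chromosome 17 in the adjustment. The 3 pseudogenes and Hmga1b have parents on chromosome 17, at 96.0% (Glo1-ps), 99.8% (Atp6v0c-ps2 and Hmga1b) and 99.4% identity (Rnps1-ps). The identity of Glo1-ps counts 1 gap, with 3 mismatched bases over 575 aligned bases. A stretch of 90 coding bases of Hmga1, from the first coding base, is shown with the matching stretch of Hmga1b to show how little separates their reads; capitals would mark bases that differ, and the transcripts are those of GENCODE M21 (GRCm38).
Hmga1: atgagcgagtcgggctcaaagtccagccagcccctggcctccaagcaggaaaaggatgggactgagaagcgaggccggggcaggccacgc
Hmga1b: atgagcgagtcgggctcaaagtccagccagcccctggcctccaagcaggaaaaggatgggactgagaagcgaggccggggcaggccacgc
The pair is identical here and over all 321 coding bases, so a read from inside the coding sequence has no base that tells Hmga1 from Hmga1b.

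Glo1-ps, on chromosome 2, was at 0.341 to 0.805 CPM among WT livers and 15.2, 18.1, 13.8 and 14.1 CPM in Homo, 27.3-fold higher (interval 19.2 to 38.9, edgeR adjusted p = 2.23e-08). Of the reads assigned to Glo1 and Glo1-ps together, the copy held 0.297% ± 0.0928 in WT (SD, n = 6) and 3.81% ± 0.326 in Homo (n = 4). The sum of the pair was 194 ± 26.1 CPM and 402 ± 43.6 CPM, so both the sum and the copy's share were higher in Homo.

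Atp6v0c-ps2 and Rnps1-ps both lie on chromosome 6. In WT each copy held a small part of its pair, so the sum of copy and parent mostly reflected the parent. Atp6v0c encodes a ring subunit of the vacuolar proton pump, and the copy took 0.0678% ± 0.0767 of the pair in WT and 3.88% ± 0.424 in Homo, with sums of 84.6 ± 6.59 and 77.2 ± 5.17 CPM. Rnps1 encodes a factor bound to spliced messenger RNA. Rnps1-ps rose from at most 0.123 CPM in WT to 2.61 to 4.05 CPM in Homo and took 0.249% ± 0.309 and 17.5% ± 2.62 of the pair. Rnps1 and Rnps1-ps summed to 18.4 ± 1.70 CPM in WT (SD, n = 6) and to 18.8 ± 1.43 CPM in Homo (n = 4), and Rnps1 alone did not pass (fold 0.841, adjusted p = 0.851).

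Hmga1, a chromatin protein gene, and its copy on chromosome 11 lay on opposite sides of WT. Hmga1b was at 0.572 to 2.24 CPM across WT and 4.59, 6.05, 2.76 and 6.75 CPM in Homo, 3.88-fold higher (interval 2.32 to 6.5, adjusted p = 0.0274, but not without Homo 1, 2 or 4 or WT 1, 4, 5 or 6, up to 0.126). Hmga1 was at 9.64 to 15.2 CPM in WT livers and 7.00, 6.70, 8.62 and 5.65 CPM in Homo, with no overlap, and missed the threshold (fold 0.54, interval 0.414 to 0.705, adjusted p = 0.0772). Hmga1b held 9.19% ± 5.68 of the pair in WT and 41.4% ± 13.0 in Homo, while the sum went from 14.3 ± 1.60 to 12.0 ± 0.654 CPM.

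Cyp4a12b was the 1 call off chromosome 17 that is neither a copy of a chromosome 17 gene nor a gene model. It encodes a male-biased cytochrome P450 that hydroxylates fatty acids, lies on chromosome 4 and is 98.3% identical to Cyp4a12a. WT livers were at 56.1 to 84.7 CPM and Homo 1 to 4 at 33.3, 32.1, 33.0 and 49.8 CPM, so Homo 4 stood apart from the other 3 and near WT. It fell to a fold of 0.501 (interval 0.384 to 0.655, adjusted p = 0.0297), a call that ended without Homo 1, 2 or 3 or WT 1, 3, 4, 5 or 6 (up to 0.167). Cyp4a12a, looked up after that value was seen, overlapped between the groups at 198 to 612 CPM and 381 to 564 CPM (fold 1.19, adjusted p = 0.998). The share of the pair in Cyp4a12b ran from 11.6% to 26.4% in WT and from 6.83% to 8.13% in Homo, and how reads were divided between these relatives is uncertain. The labels do not give sex. Female-biased liver genes, of which 11 of 21 listed had enough reads, had a list median of 0.22, -0.79, -0.79 and 1.21 in Homo 1 to 4. In WT that median ran from -0.68 to 0.28. Homo 4, highest in that list, had Cyp4a12a at 564 CPM, the highest of the Homo livers. The 7 tested Y genes had a median log2 difference of -0.11, with 0 at an edgeR p under 0.05 before adjustment. The male-biased list, which holds Cyp4a12b, had 15 of 22 members above a fold of 1 (median log2 0.12), with 0.03, 0.21, 0.34 and -0.06 in Homo 1 to 4 and from -0.36 to 0.28 in WT. The part of this spread in Cyp4a12b was not tested.

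**Figure D4:**
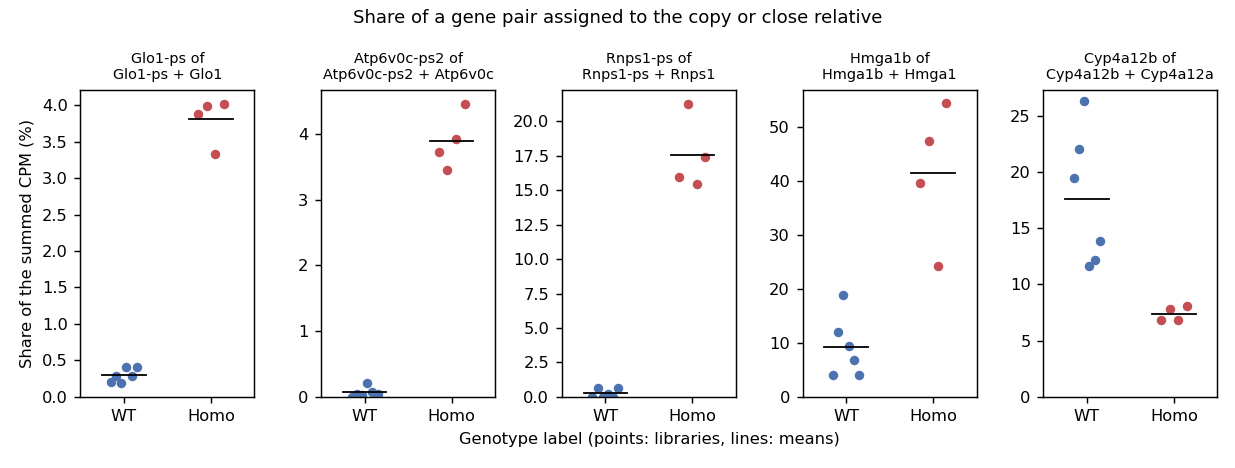
Share of the summed CPM of a gene pair assigned to the copy or close relative, in percent, for each WT and Homo library with group means as lines. Homo points lie above all WT points for Glo1-ps, Atp6v0c-ps2, Rnps1-ps and Hmga1b and below them for Cyp4a12b.

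The other calls counted as off chromosome 17 include ENSMUSG00000121779 and ENSMUSG00000121610, whose chromosome is not known here. ENSMUSG00000121779 was at 7.99 to 16.2 CPM among WT livers and 74.5, 75.1, 79.8 and 71.3 CPM in Homo, 5.94-fold higher (interval 4.91 to 7.19, adjusted p = 2.23e-08). Gm13169, on chromosome 4, had 123 counts over WT and 0 over Homo, at least 22.7-fold lower when 3 counts stand for the Homo total. Its best match among other transcripts is Ppp2r5a, a phosphatase subunit gene on chromosome 1, at 96.4% identity. ENSMUSG00000121610 had 12 and 81 counts, and its call ended without Homo 1 or Homo 4 (adjusted p up to 0.0658).

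Below the threshold, the genes off chromosome 17 with the smallest p fell into 2 kinds. The first differed a little in most livers. Chpt1, the last enzyme of phosphatidylcholine synthesis from choline, was at 109 to 123 CPM across WT and 97.6, 99.7, 103 and 91.7 CPM in Homo (fold 0.847, interval 0.778 to 0.921, edgeR adjusted p = 0.261). Rdh11, a retinal reductase, was at 27.3 to 34.1 and 35.2 to 49.9 CPM (fold 1.43, adjusted p = 0.268). Oat, which makes glutamate semialdehyde from ornithine in pericentral hepatocytes, was at 206 to 261 and 174 to 200 CPM (fold 0.804, adjusted p = 0.398). Ppp1r16a, a regulator of a phosphatase, was at 16.9 to 22.1 and 23.3 to 27.4 CPM (fold 1.28, adjusted p = 0.129). None of these 4 genes overlapped between the groups, which was true of 0.893% of the genes off chromosome 17. None passed with edgeR, while each passed with DESeq2. They were picked for a small p, so neither the gap nor the DESeq2 result is separate support.

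The second kind rested on 1 or a few livers. C1rb, a complement protease gene, was at 138 CPM in Homo 2 and at most 0.414 CPM in each of the other 9 livers, so its fold of 138 (interval 14.4 to 1319) described 1 mouse. Gbp11, a guanylate-binding protein gene of the interferon response, was at 6.04 to 35.7 CPM in WT livers and 89.3, 18, 118 and 56.3 CPM in Homo (fold 3.94, adjusted p = 0.231). C1rb passed without Homo 3 or Homo 4 and had an adjusted p of 1.0 without Homo 2. Gbp11 passed without Homo 2 and had an adjusted p of 0.762 without Homo 3.

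Other genes of the same selection by p also missed the threshold. Ly6a, a surface marker of activated lymphoid and endothelial cells, was at 6.16 to 11.1 CPM among WT livers and 11.1 to 17.6 CPM in Homo (fold 1.57, adjusted p = 0.411). Siglec1, a sialic acid receptor of macrophages, was at 17.2 to 21.4 and 21.4 to 27.1 CPM, and Pik3cd, the leukocyte form of phosphoinositide 3-kinase, at 2.02 to 3.15 and 3.72 to 4.39 CPM (adjusted p = 0.401 and 0.522). Clec2d, a C-type lectin gene, was lower, at 145 to 189 and 117 to 143 CPM (adjusted p = 0.579). Leaving out pseudogenes and gene models such as Glo1-ps and ENSMUSG00000121779, the 15 higher and 15 lower genes with the smallest p off chromosome 17 held 2 calls, Hmga1b and Cyp4a12b.

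How large a change could have been missed depended on the level of the gene. For 12335 of the 15448 genes off chromosome 17 (79.8%) the 95% interval of the fold lay wholly within 2-fold either way, and for 59.8% within 1.5-fold. At a WT mean of 10 to 100 CPM these shares were 97.4% and 92.8% of 5869 genes, and at 100 CPM or more 96.5% and 90.3% of 1107 genes. Under 1 CPM the share within 2-fold was 24.5% of 3013 genes. Counts were also simulated from the means and depths of these libraries for 15818 genes. Only genes with a mean of at least 1 CPM were set to differ. The fit found 37.33% of the 75 genes set to differ 1.5-fold, 85.29% of the 68 at 2-fold and 94.74% of the 57 at 4-fold. It also called 6 unchanged genes. More genes were set to differ than were called in the livers, which eases the adjusted threshold. The shares may therefore overstate recovery in the livers, and they do not cover genes under 1 CPM.

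Gene lists for liver pathways held 1 call off chromosome 17. Of 676 measured genes on 36 lists, 7 passed: Pkd1, Tedc2, Glo1, H2-Bl, H2-T24, H2-T10 and Cyp4a12b, of which 1 lies off chromosome 17. The share called on the lists was above the 0.222% of all tested genes, but chromosome 17 genes passed at 3.72%. The lists include Pkd1 and were chosen with earlier results of these data known, so this share is no separate support. Of all tested genes 50.6% were above a fold of 1, and the median log2 difference was 0.00. Lists are described below by the same counts, without a test.

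Genes of fatty acid oxidation that PPARalpha controls lay lower in all 27 measured members (median log2 -0.21). None passed the threshold, and 13 had p under 0.05 before adjustment, against 4.73% of all tested genes. The list median per library, set against the WT mean, was -0.25, -0.22, -0.12 and -0.18 in Homo and ran from -0.15 to 0.18 in WT, so WT 6 fell inside the Homo range. Eci1, a mitochondrial isomerase gene 7 places before Pkd1, was at 52.7 to 62.0 and 40.2 to 52.6 CPM and was the 1 member without overlap (edgeR adjusted p = 0.778). Decr1, the mitochondrial counterpart of Decr2, was at 72.3 to 79.9 and 64.1 to 72.6 CPM (adjusted p = 0.807). With library totals for scaling, 24 of 27 members lay lower and the median was -0.17.

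Genes of cholesterol synthesis that SREBP2 controls were above a fold of 1 in 22 of 25 members (median log2 0.19), with 0 past the threshold. Acat2, which joins acetyl units at the start of the pathway, lies 96 tested genes before Pkd1 and came nearest, at 29.8 to 39.9 CPM in WT livers and 57.7, 49.0, 53.3 and 60.9 CPM in Homo (fold 1.53, adjusted p = 0.0761). Dhcr7, the last enzyme, was at 56.7 to 77.1 and 78.0 to 93.1 CPM (fold 1.27, adjusted p = 0.274). Both genes had groups without overlap. Without Acat2 the list median was 0.17. Per library it ran from 0.08 to 0.30 in Homo and from -0.27 to 0.19 in WT, so the groups overlapped.

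Chaperone and detoxification genes lay lower without any call. Heat shock chaperones were under a fold of 1 in 19 of 20 members (median log2 -0.22). WT 1 and WT 2, each at -0.16, lay inside the Homo range of -0.36 to -0.05. Hsp90aa1, the inducible cytosolic chaperone, was at 169 to 297 CPM among WT livers and 142, 143, 158 and 221 CPM in Homo (fold 0.688, adjusted p = 0.998). Xenobiotic metabolism genes were under a fold of 1 in 22 of 25 members (median -0.17), with Homo 2 and Homo 3 at -0.39 and -0.31 and Homo 1 and Homo 4 at -0.03 and 0.09. Without Homo 2 the median was -0.10, and without Homo 4 it was -0.24.

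Cell cycle and replication genes were above a fold of 1 in 23 of 26 members (median log2 0.26), again with 0 past the threshold. Per library the list stood at 0.13, 0.22, 0.21 and 0.47 in Homo and from -0.08 to 0.13 in WT. Mcm5, a subunit of the replication helicase, was at 2.01 to 3.00 CPM across WT and 3.14, 4.05, 3.06 and 4.01 CPM in Homo (fold 1.37, adjusted p = 0.976). Mki67, the proliferation marker, overlapped at 3.61 to 7.82 and 6.07 to 9.83 CPM. Without Homo 4 the median was 0.10. Cdkn1a, a chromosome 17 brake on the cycle, was at 12.2 CPM in Homo 4 and 0.776 to 1.59 CPM in the other Homo livers, against 0.827 to 1.72 CPM in WT.

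**Figure D5:**
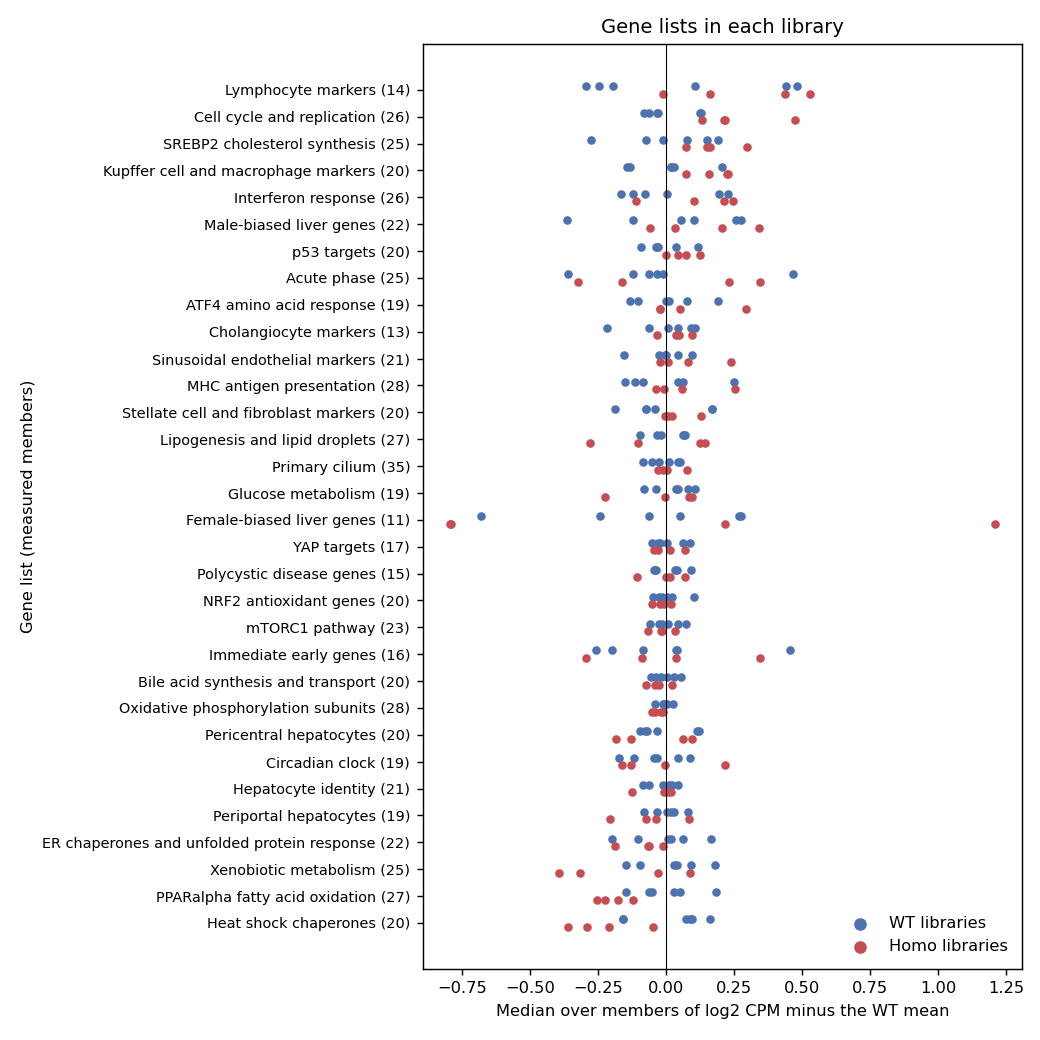
Median over the measured members of each gene list of log2 CPM minus the WT mean, for each WT (blue) and Homo (red) library; member numbers are in parentheses and lists of fewer than 10 members are not drawn. Most lists lie near 0 in both groups. All 4 Homo points of fatty acid oxidation lie under 5 of the 6 WT points, and female-biased genes spread from -0.79 to 1.21 in Homo.

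In lists tied to polycystin and to liver identity the median log2 difference was close to the 0.00 of all tested genes. Of all tested genes 50.6% were above a fold of 1 and 0.222% were called. On chromosome 17, where Tedc2 and Pkd1 lie, 3.72% were called. Of 35 measured genes of the primary cilium 18 were above a fold of 1 (median log2 0.01) and 1 was called, Tedc2. For 25 of the 35, Tedc2 not among them, the interval lay within 1.5-fold. Polycystic disease genes had 6 of 15 above 1 (median -0.01) with Pkd1 called, mTORC1 pathway genes 10 of 23 (median -0.01) and YAP targets 9 of 17 (median 0.00), both with 0 called. Oxidative phosphorylation subunits had 9 of 28 above 1 (median -0.03), all 28 with intervals within 1.5-fold. Hepatocyte identity genes had 8 of 21 above 1 (median -0.04). With library totals for scaling, the medians of the oxidative phosphorylation, mTORC1, polycystic and hepatocyte identity lists changed sign, to 0.01, 0.03, 0.03 and 0.00, all 4 within 0.05 of 0 under either scaling.

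Summed markers of other liver cells mostly overlapped between the groups. Summed cholangiocyte markers (Krt7, Krt19, Epcam, Sox9 and Cftr) were at 6.18 to 13.5 CPM in WT livers and 6.73 to 9.07 CPM in Homo. The longer list of cholangiocyte markers had 8 of 13 members above a fold of 1 and 0 called. Kupffer cell markers were at 143 to 171 and 164 to 178 CPM, and sinusoidal endothelial markers at 173 to 200 and 185 to 228 CPM. Stellate cell markers were at 146 to 210 and 176 to 200 CPM. The defining adipocyte markers (Adipoq, Plin1 and Lep) summed to at most 0.113 CPM. Pancreatic acinar markers summed to 13.3 to 20.1 CPM in WT and to 16.5 to 18.7 CPM in Homo, with Prss2 at 0 in all libraries. Only 1 of these 4 markers had enough reads to be tested, so the sum does not stand for acinar cells.

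Of the macrophage genes 16 of 20 members were above a fold of 1 in Homo (median log2 0.15), and 0 were called. C1qb, a complement subunit made by Kupffer cells, was at 27.6 to 33.6 CPM among WT livers and 36.2, 36.8, 34.3 and 33.7 CPM in Homo (fold 1.17, adjusted p = 0.771). Lymphocyte markers summed to 5.49 to 15.1 CPM across WT and 17.6 to 25.3 CPM in Homo. That sum was mostly Cd3e, a chain of the T cell receptor complex, at 3.93 to 14.2 CPM in WT livers and 18.3, 15.5, 23.3 and 16.7 CPM in Homo (fold 1.58, adjusted p = 0.976). Its partner chain Cd3g had a WT mean of 0.324 CPM and a Homo mean of 0.361 CPM, and Cd3d and Cd8a had too few counts to be tested. The part of these cells in the results above was not tested.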

How the data were processed

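RNA from whole liver of 14 mice was sequenced, per the labels' protocols after Trizol and RNeasy extraction with a NuGen Ovation mouse kit. The deposited table holds estimated counts for 57180 Ensembl genes, made by the authors with STAR and Salmon on GRCm39, per the submitters' processing notes. The versions, annotation and strand setting were not stated in the sources used here. Values were rounded to whole counts and filtered with filterByExpr (count minimum 10, total minimum 15) in edgeR 4.0.16 under R 4.3.3. TMM scaling and 1 quasi-likelihood fit of all 14 libraries followed, with Benjamini-Hochberg adjustment at 0.05. WT, Het and Homo came from the genotype labels, which give no batch. Depth was 18573739 to 40925973 counts per library; floors of 3 counts and 95% counting intervals cover counting error only. Alternatives were DESeq2 1.42.0, other scaling, filters and sample sets, a replicate block, and leaving out each library.

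GENCODE M21, which is on GRCm38 and not on the build of the counts, gave chromosome and gene order for 15610 of 16201 tested genes; 591 had no place and counted as off chromosome 17. The genes named were Pkd1, Tsc2, Pkd2, all called genes, neighbours within 20 genes of Pkd1, the 15 higher and 15 lower genes off chromosome 17 with the smallest p (mean of at least 1 CPM in WT or Homo, no gene models or pseudogenes), and 3 genes per list with the smallest p. Any other gene was chosen after its values were seen. The comparison and the gene lists were chosen with earlier results of these data known. Some of these genes and sequences are not reported here. The fit was tested on simulated data.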

Additional observations from a re-analysis of the deposited data

Results flagged for a closer look

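In 14 of 164 sets of 4 or 6 libraries (82 genes in each group), 1 library stood apart from the rest by Dixon's ratio, the gap to the nearest library over the whole range; about 5% of such sets would be marked by chance. In Homo, Homo 2 stood apart in C1rb (ratio 0.999, 138 CPM against at most 0.384) and Aldh3a2, a fatty aldehyde dehydrogenase gene (0.873, 62.4 CPM against 85.3 to 88.6). Homo 4 stood apart in Cyp4a12b (0.933, 49.8 CPM against at most 33.3) and Cdkn1a (0.929, 12.2 CPM against at most 1.59). Homo 1 stood apart in Tsc2 (0.906, 37.1 CPM against 41.2 to 41.6) and in the ciliary transport gene Ift140 (0.848, 12.7 CPM against 11.8 to 12.0).

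In WT, WT 1 was low in Cd3e (0.845, 3.93 CPM against 12.6 to 14.2) and Pkd2 (0.654, 12.8 CPM against 19 to 22.3) and high in the macrophage marker Cd68 (0.763, 10.2 CPM against at most 7.44). WT 2 was low in Adtrp, a hydrolase of fatty acid esters (0.732, 59.2 CPM against 68.3 to 71.7). WT 4 was low in H2-Bl (0.643, 0.345 CPM against 1.11 to 1.54) and high in Atp6v0c-ps2 (0.667, 0.192 CPM against at most 0.0638). WT 5 was low in Rnf39 (0.714, 2.11 CPM against 2.86 to 3.16), and WT 3 was the 1 WT library with Gm50252 (1.0, 0.146 CPM against 0).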

How the results depend on the processing

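The 36 calls stayed between 30 and 36 with DESeq2 size factors, WT and Homo libraries only, a filter of at least 1 CPM in 4 libraries, and library totals. DESeq2 gave 61 (38 higher, 23 lower, 43 on chromosome 17), among them all 36, no filter gave 53 (40 and 13), and leaving chromosome 17 out gave 5. Leaving out 1 library at a time gave 23 (without Homo 1) to 33. Off chromosome 17 the count of 5 was 11 with DESeq2 (7 higher, 4 lower), 14 with no filter (12 and 2), 8 with chromosome 17 in the adjustment, and 5 to 7 without 1 library. The log2 difference of Pkd1 was -0.42 with library totals and -0.49 to -0.42 without 1 library, and 7 of those 10 fits missed the threshold.

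A block for the replicate number left 19 genes called (14 higher, 5 lower). Genes off chromosome 17 adjusted alone gave 5 under the block, and Pkd1 missed the threshold (log2 -0.45, adjusted p = 0.071). The numbers did not pair the libraries: deviations of same-numbered WT and Homo livers correlated at 0.0408, -0.0373, -0.0032 and 0.149, and 1 of 4 was highest with its own number.

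Over 81 other named genes, 1292 of 1414 values kept their direction and side of the threshold, 98 lost the threshold, 23 gained it, and 1 reversed: Cdkn1a, whose log2 difference ran from -0.025 (without Homo 4) to 1.98 when 1 library was left out. Library totals for the gene lists were added after the data were seen. Precision was lowest for genes under 1 CPM. The cause of these shifts was not tested.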
